A study of Mus musculus with 89 samples.

Results

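Interferon-stimulated genes are the genes that cells switch on when interferon reaches them. A list of 41 of them was followed through the 2 exon skipping tables of a mouse study of the nucleus accumbens, part of the reward circuit of the brain. Members were found by their symbol, and 31 of the 41 stood in the first table, among 9542 genes, and 12 in the second, among 3434 genes. The study asked how the histone mark H3K36me3, which is placed over transcribed gene bodies, bears on splicing, and holds 89 samples in 21 groups, of which 48 are not RNA and were not analysed here. For the first table the labels name 9 RNA libraries of nucleus accumbens from wild type C57BL/6 mice of 8 weeks, after herpes simplex virus (HSV) vectors carrying GFP, Set2 (an H3K36 methyltransferase) or a Set2 with the substitution R195G, 3 libraries per vector. The treatment labels HSV-GFP, HSV-Set2 and HSV-R195G thus share the viral vector, and tissue was taken by micropunch. For the second table they name 32 runs from wild type C57BL/6 mice of 8 weeks given dCas9-SET2, in which SET2 is joined to a Cas9 that no longer cuts, with the guide label sgRNA-SRSF11 or the non-targeting sgRNA-NT, 16 runs per guide under 4 sample names.

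The first table, called the HSV table here, gives 2 sets of unnamed columns, one of 2 libraries and one of 3. It therefore holds part of the 9 labelled libraries, and which vector belongs to which set is not stated. Comparisons below are between the 2-library set and the 3-library set, and no vector is assigned to either. Nothing says that the libraries came from separate animals, so p-values measure only the spread between these libraries. The second table, called the dCas9-SET2 table, gives 2 sets of 16 unnamed runs.

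Interferons bind receptors on the cell surface, the receptors activate the kinases Jak1 and Tyk2, and these phosphorylate factors such as Stat2. Stat2 and Irf9 are parts of a complex that binds the interferon-stimulated response element (ISRE) in promoters. The gamma-activated site (GAS) is the element through which interferon gamma acts. The induced genes sense viral RNA, degrade or edit double-stranded RNA, block viral entry and release, tag proteins with ubiquitin, ISG15 or ADP-ribose, and feed back on the pathway. In the brain they are low at rest, and microglia, astrocytes and neurons can all express them.

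Because the members share this route of control, their promoters were searched for both elements. RefSeq promoters of build GRCm38.p6, from 250 bases before to 50 after each gene's start, were given for 31 of the 41 members, 39 promoters in all. The ISRE was searched on both strands as GAAA, any 2 bases and GAAA, and lay in 15 of 39 member promoters, 38.5% (95% exact binomial interval 23.4% to 55.4%), against 3.44% of all 32851 promoters. By gene, 13 of 31 members held it. The GAS was searched as TTC, any 3 bases and GAA, which reads the same on both strands, and lay in 7 of 39 member promoters, 17.9% (7.54% to 33.5%), against 8.30% of all promoters. Promoters of a gene can overlap, so the intervals are too narrow. A match is a match of letters and was not tested as a site. The promoter segments below are those of the 6 members with a match before the start and reads in either table. They are shown 5′ to 3′ in the direction of the gene, with ISRE matches in capitals.

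Oas1a, chr5:120907526-120907569, minus strand: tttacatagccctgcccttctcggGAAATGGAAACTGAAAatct

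Bst2, chr8:71537563-71537626, minus strand: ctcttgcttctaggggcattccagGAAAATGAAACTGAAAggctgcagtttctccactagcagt

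Trim30a, chr7:104465196-104465253, minus strand: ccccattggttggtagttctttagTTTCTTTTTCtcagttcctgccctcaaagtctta

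Stat2, chr10:128270252-128270309, plus strand: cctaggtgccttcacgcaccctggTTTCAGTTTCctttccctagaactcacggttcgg

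Slfn8, chr11:83020825-83020882, minus strand: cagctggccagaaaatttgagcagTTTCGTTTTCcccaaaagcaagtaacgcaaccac

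Rsad2, chr12:26456539-26456596, minus strand: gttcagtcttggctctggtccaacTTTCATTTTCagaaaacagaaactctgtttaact

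The segments of Oas1a and Bst2 each hold 2 overlapping matches in the direction of the gene, 20 to 5 and 130 to 115 bases before the start. Those of Trim30a, Stat2, Slfn8 and Rsad2 hold 1 match on the other strand. The tested members with an ISRE match (9) had log2 coverage differences between the sets of 3.20 to 4.76, inside the range of 0.75 to 6.95 of the 14 tested members whose promoters were given and held none.

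Coverage of a gene in the HSV table is the sum of reads that include and reads that skip the exon of its most deeply read event, and it stands in for the level of its RNA. It is given as CPM, reads per 1000000 reads listed in the library after TMM scaling. The 5 libraries listed 7428974 to 8638249 reads. Each of the 30 members with a mean of at least 20 reads per library was higher in the 3-library set at an adjusted p below 0.05 (limma), against 13.2% of all 8201 genes tested (9.49% were lower, and 22.7% were called in either direction). The log2 differences ran from 0.75 to 6.95 with a median of 3.91, where the median of all genes was 0.00. For 14 of the 30 the minimum was reached only through the 3-library set, so that they had to differ. They were Ifih1, Ddx58, Dhx58, Zbp1, Nlrc5, Isg20, Ifi44, Slfn4, Slfn8, Mx1, Mx2, Herc6, Trim21 and Trim25. As the minimum fixed their direction, their adjusted p-values and ranks below are no support for a difference. The other 16 averaged at least 20 reads in the 2-library set as well. Each of these 16 was called higher, with log2 differences of 0.75 to 6.27 and a median of 3.35, against 11.9% of the 7959 genes that meet the same condition. The members were chosen with earlier results of these data known, so their shares of calls are not independent of these data. The 3 libraries of the 3-library set lay above both of the other set for each of the 30, as they did for 26% of all genes. In these bulk libraries more cells of a type and more RNA per cell cannot be told apart.

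**Figure D1:**
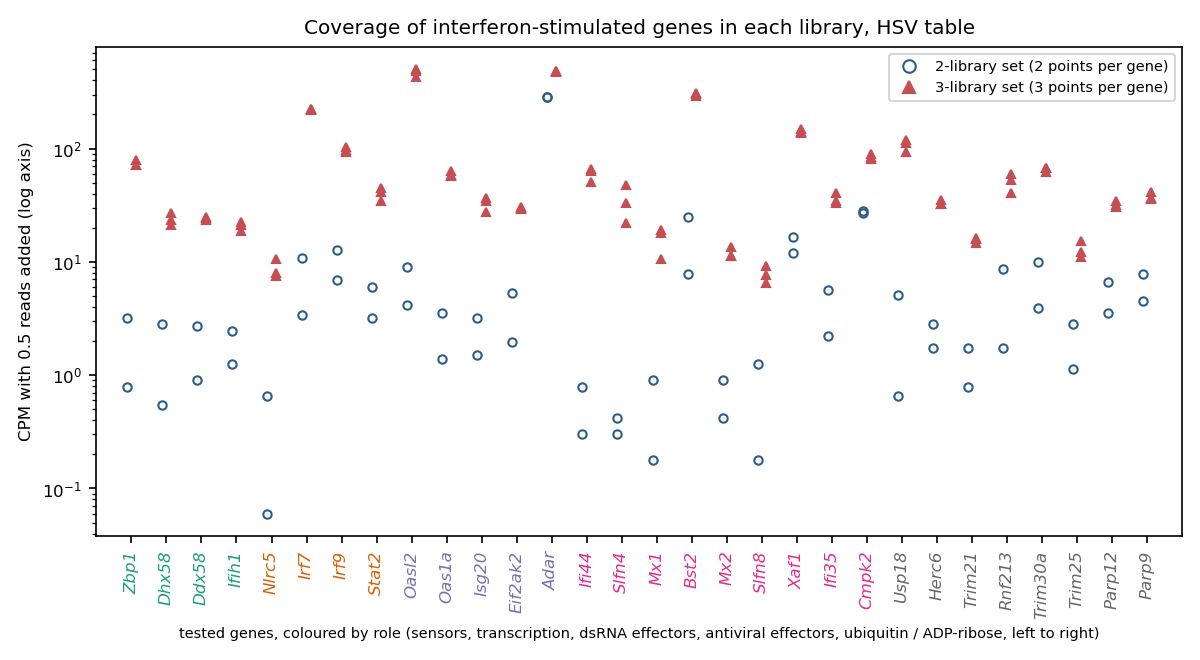
Coverage of the 30 tested interferon-stimulated genes in each library of the HSV table, in CPM with 0.5 reads added to each count (log axis), with open circles for the 2-library set and triangles for the 3-library set. The sets do not overlap for any of the 30 genes, and Adar and Cmpk2 lie closest together.

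Of the 11 other members, Oas2, which senses double-stranded RNA and makes oligoadenylates, was listed but fell under the minimum. Its deepest event had 1 and 0 reads in the 2-library set and 19, 39 and 28 reads in the 3-library set, a ratio of 60.9 with a 95% exact counting interval of 10.6 to 2432. The interval covers counting error only. The other 10, Oasl1, Oas3, Irf1, Parp14, Dtx3l, Ifit1, Ifit3, Samd9l, Rtp4 and Rsad2, had no event in the HSV table. A gene without an event is not listed, which says nothing of its level.

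The sensors were represented by 4 of 4 members, all of which reached the minimum of reads only through the 3-library set. Zbp1, a sensor of Z-form nucleic acids, had the most reads and the largest difference of them, with 0.72 and 3.12 CPM in the 2-library set and 79.6, 72.2 and 71.2 CPM in the 3-library set. Its log2 difference was 5.56 ± 0.41 (SE, adjusted p = 1.1e-06), a 47.2-fold change and the tenth largest of all genes tested. Ifih1, the sensor MDA5 of long double-stranded RNA, showed the smallest difference of the class, with 1.2 and 2.4 against 20.9, 18.7 and 22.6 CPM (log2 difference 3.56 ± 0.32, adjusted p = 4.8e-06). The sets did not overlap for either gene. Between them stood Dhx58 at a log2 difference of 4.26, which encodes the regulatory helicase LGP2, and Ddx58 at 3.96, which encodes the sensor RIG-I of short triphosphorylated RNA.

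The transcription factors and regulators had 4 of 5 members tested, of which Nlrc5 reached the minimum of reads only through the 3-library set. Irf7, the factor that amplifies interferon production, had the most reads of them, with 3.36 and 10.7 CPM in the 2-library set and 223, 224 and 217 CPM in the 3-library set (log2 difference 5.19 ± 0.32, adjusted p = 2.3e-07). The 3 libraries of the 3-library set were nearly equal, whereas the second library of the 2-library set was 3.14 times the first. Nlrc5, a transactivator of class I histocompatibility genes, had the largest difference of the class on few reads, 0 and 5 reads against 63, 61 and 79 reads (log2 difference 5.44 ± 0.82, adjusted p = 0.00037). Stat2, a subunit of the complex that binds the ISRE, had the smallest, with 3.12 and 5.88 CPM against 45.2, 34.6 and 41.3 CPM (log2 difference 3.21 ± 0.25, adjusted p = 1.8e-06). Its partner Irf9, the DNA-binding subunit, had 6.84 and 12.7 CPM against 97.7, 92.4 and 103 CPM, a 10.4-fold difference. Reads of Stat2 and of Apof, which overlap in RefSeq, cannot be told apart where they share sequence, as the sources used here do not state whether strand was used.

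Among the effectors that act on double-stranded RNA, 5 of 8 members were tested. Isg20 reached the minimum of reads only through the 3-library set. Oasl2, an oligoadenylate synthetase-like protein, had 34 and 75 reads in the 2-library set and 4224, 3291 and 3646 reads in the 3-library set, or 4.08 and 9.01 against 502, 431 and 487 CPM. That is a log2 difference of 6.27 ± 0.23 (adjusted p = 3.2e-09), 77.1-fold, and the fourth largest of all genes tested. Adar, which edits adenosine to inosine in double-stranded RNA and also has a constitutive form, had the most reads of the class and changed least of all 30, with 285 and 285 CPM against 484, 473 and 482 CPM (log2 difference 0.75 ± 0.07, adjusted p = 1.0e-05). A spread this small within each set left no overlap even at 1.68-fold. Oas1a, another oligoadenylate synthetase, differed by 4.76, the exonuclease gene Isg20 by 3.90 and Eif2ak2, the kinase PKR that halts translation, by 3.20 on the log2 scale. Reads of Oas1a can be shared with its close Oas1 copies, and Adar overlaps Chrnb2 in RefSeq, so both values are uncertain in that respect.

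The antiviral effectors had 9 of 14 members tested, of which Ifi44, Slfn4, Slfn8, Mx1 and Mx2 reached the minimum only through the 3-library set. Bst2, the tetherin that holds budding virus at the membrane, had the most reads, with 7.80 and 24.7 CPM in the 2-library set and 305, 294 and 310 CPM in the 3-library set (log2 difference 4.44 ± 0.32, adjusted p = 7.6e-07). Ifi44, an interferon-induced cytoplasmic protein, had the largest difference of all genes tested, with 2 and 6 reads against 555, 389 and 476 reads (log2 difference 6.95 ± 0.36, adjusted p = 6.1e-08). Cmpk2, a mitochondrial nucleotide kinase, had the smallest of the class, with 28.0 and 26.8 CPM against 84.9, 81.2 and 89.5 CPM (log2 difference 1.64 ± 0.11, adjusted p = 6.4e-07). The remaining 6 ranged from 3.32 for Ifi35 and 3.33 for Xaf1 to 6.52 for Slfn4. Slfn4, a Schlafen gene of myeloid cells, varied most within the 3-library set, at 33.0, 47.8 and 21.9 CPM, and had 3 and 2 reads in the 2-library set. Mx1 and Mx2, dynamin-like GTPases, had 1 and 7 and 3 and 7 reads in the 2-library set and log2 differences of 5.25 and 4.28. Mx and Schlafen genes have close copies, and reads shared among copies make the values of Mx1, Mx2, Slfn4 and Slfn8 uncertain.

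The genes of ubiquitin, ISG15 and ADP-ribose transfer had 8 of 10 members tested. Herc6, Trim21 and Trim25 reached the minimum of reads only through the 3-library set. Usp18, which removes ISG15 and restrains the interferon receptor, had both the most reads and the largest difference, with 0.60 and 5.04 CPM in the 2-library set and 118, 93.4 and 111 CPM in the 3-library set (log2 difference 5.87 ± 0.56, adjusted p = 9.3e-06). Parp9, a partner of an ADP-ribosylation complex, had the smallest difference, with 4.44 and 7.68 CPM against 36.2, 35.6 and 41.6 CPM (log2 difference 2.68 ± 0.23, adjusted p = 3.3e-06). Herc6, the mouse ligase for ISG15, differed by 3.91, and the ubiquitin ligases Trim21, Rnf213, Trim30a and Trim25 by 3.73, 3.70, 3.40 and 2.83. Parp12, an ADP-ribosyltransferase, differed by 2.73. Trim30a has close copies, and Parp9 overlaps Dtx3l in RefSeq, which leaves their values uncertain in that respect.

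**Figure D2:**
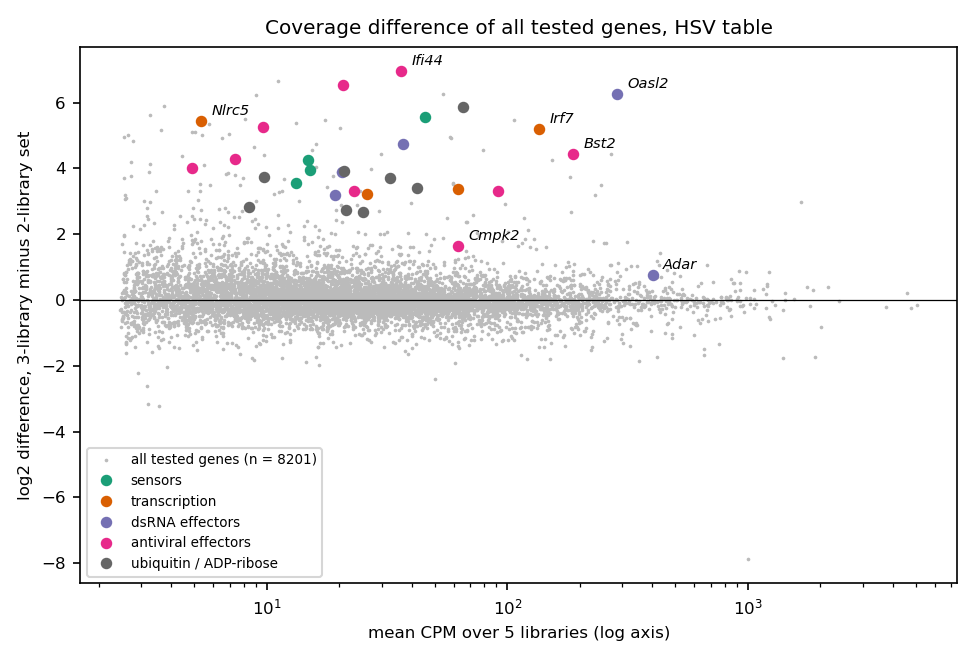
Log2 coverage difference (3-library minus 2-library set) of all 8201 tested genes of the HSV table against their mean CPM over the 5 libraries (log axis), with the 30 interferon-stimulated genes coloured by role. The coloured points lie between 0.75 (Adar) and 6.95 (Ifi44), and 25 of them are among the 100 genes of largest difference. For 14 of the 30 the minimum of reads was reached only through the 3-library set, so that they had to differ.

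Levels can be compared between genes only per length, as reads per kilobase of the counted form per 1000000 reads. On that scale Adar was the most covered of the 30 in the 2-library set, at 182, followed by Bst2 at 85.6, Cmpk2 at 77.8 and Irf9 at 36.8. In the 3-library set the order was Bst2 at 1596, Oasl2 at 1094, Irf7 at 996, Irf9 at 370, Usp18 at 339 and Adar at 307. Oasl2 thus stood in place 10 in the 2-library set and in place 2 in the 3-library set, and Ifi44 in places 29 and 18. In the 3-library set Oasl2 and Irf7 are neighbours in this order, and so are Adar at 307 and Xaf1 at 304. These 2 levels are nearly equal.

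The libraries of the 2-library set were not alike for these genes. The second was higher than the first for 27 of 30 members, with a median ratio of 2.51, where all genes tested had a median ratio of 0.99 and 5th and 95th percentiles of 0.67 and 1.91. Usp18 had 7.73 times the coverage in the second library, Dhx58 5.23 times and Zbp1 4.08 times, while Adar had 1.00 and Cmpk2 0.96 times. Within the 3-library set the ratio of the highest to the lowest library had a median of 1.16 over members and 1.23 over all genes, and exceeded 1.5 for 2 members, Slfn4 and Mx1. The median log2 difference of the 30 members was 3.12 with the first of these 2 libraries left out and 4.60 with the second left out. Nlrc5 moved most, from 3.71 to 7.17. In both cases, and with each library of the 3-library set left out, 30 of 30 were still called higher, where a lone library is assumed to vary like the other set.

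Receptors, kinases and Stat factors carry the signal from interferon to the members. Of 8 tested genes 2 were higher and 1 was lower, with a median log2 difference of 0.22. Ifnar2, a chain of the type I receptor, had 10.3 and 17.4 against 20.9, 25.5 and 28.6 CPM (0.89, adjusted p = 0.014), and Stat3, which serves cytokine receptors, had 36.5 and 33.4 against 49.7, 50.4 and 45.3 CPM (0.47, adjusted p = 0.016). Neither call held with each library left out in turn. Ifnar2 had an adjusted p of 0.12 with library 1 of the 2-library set left out, and 0.051 and 0.065 with library 2 or 3 of the 3-library set left out. Stat3 had one of 0.056 with library 2 of the 2-library set left out and 0.065 with library 1 of the 3-library set left out. Jak2, a kinase of the gamma receptor, fell from 38.8 and 37.7 to 24.8, 23.4 and 19.9 CPM (log2 difference -0.75, adjusted p = 0.0031), though its difference summed over all its events was -0.17 (adjusted p = 0.21). Log2 differences of the other 5 were -0.19 for Jak1, -0.08 for Ifngr1, 0.13 for Ifngr2, 0.31 for Ifnar1 and 0.36 for Tyk2, none of them called. The sets overlapped for 4 of these, and Jak1 was lower in each library of the 3-library set.

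Of 11 tested genes of sensing adaptors and kinases 4 were higher and 0 lower, with a median log2 difference of 0.80. They ran from -0.14 for Irf3, a factor activated downstream of the sensors, which was not called, to 2.27 for the RNA receptor gene Tlr3 (adjusted p = 0.0022). Tlr3 had 1.68 and 0.84 CPM against 6.77, 5.63 and 5.61 CPM. It reached the minimum of reads only through the 3-library set, so that it had to differ. Of 8 genes of interferon feedback 4 were higher and 0 lower, from -0.23 for the deubiquitinase gene Otud5, which was not called, to 3.71 for Uba7 (adjusted p = 2.8e-05), which activates ISG15. Uba7 had 0.60 and 1.32 CPM against 9.62, 14.7 and 13.6 CPM, and had to differ for the same reason as Tlr3. The call of Ptpn6 was lost with any library but the second of the 2-library set left out (adjusted p of 0.068 to 0.34). Class I antigen presentation, another inducible group, had 10 of 10 tested genes higher and a median of 3.23. Its values ran from 1.62 for the proteasome activator gene Psme1 to 5.46 for H2-Q4, a histocompatibility gene whose reads can be shared with close copies. Erap1 of this group reached the minimum of reads only through the 3-library set. Of 5 NF-kB genes 2 were higher, from -0.10 for Relb, which was not called, to 1.97 for the adhesion gene Icam1 (adjusted p = 0.017). The call of Icam1 was lost with library 2 of the 3-library set left out (adjusted p = 0.093), with library 3 left out (0.051) and with library 1 of the 2-library set left out (0.079).

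Marker genes of cell types moved between the same libraries. Of 13 tested microglial markers 6 were higher, from -0.50 for the lysosomal gene Cd68, which was not called, to 1.40 for Tmem119 (adjusted p = 0.00039). Their summed coverage was 626 and 1426 CPM in the 2-library set and 1334, 1391 and 1287 CPM in the 3-library set. Of the 6 calls 5 were lost with library 1 of the 2-library set left out, those of Csf1r (adjusted p = 0.35), Siglech (0.061), Aif1 (0.064), C1qa (0.27) and Fcer1g (0.46), and Csf1r, C1qa and Fcer1g lost theirs with any library of the 3-library set left out as well. Tmem119 kept its call throughout. The microglial sum of library 2 of the 2-library set was 2.28 times that of library 1 and as high as in the 3-library set. The members were also higher in library 2 than in library 1, by the median ratio of 2.51 given above. Their summed coverage was 379 and 469 CPM in the 2-library set, of which Adar made 285 CPM in each library, and 2519 to 2702 CPM in the 3-library set. Without Adar the sums were 94.0 and 184 CPM, 1.96 times higher in library 2, against 2046 to 2218 CPM. Of 10 markers of medium spiny neurons, the main neurons of the nucleus accumbens, 9 were lower and 0 higher. Their summed coverage was 4757 and 3817 CPM against 1657, 1711 and 1595 CPM. They ran from -1.80 for the phosphodiesterase gene Pde10a (adjusted p = 8.1e-06) to -0.22 for the peptide gene Pdyn, which was not called (adjusted p = 0.23, and 0.048 with library 2 of the 2-library set left out). The defining markers of the labelled tissue were thus present in all 5 libraries, at lower summed levels in the 3-library set. The part of either marker list in the members' differences was not tested.

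Of 3 tested monocyte and macrophage markers 3 were higher, from 1.61 for Fn1 (adjusted p = 0.039) to 4.93 for Plac8 (adjusted p = 5.5e-09), with a summed 4.32 and 9.49 against 110, 97.7 and 126 CPM. Fn1 and Ms4a7 reached the minimum of reads only through the 3-library set, so that they had to differ. Plac8 made up most of the sum in the 3-library set, and Fn1 lost its call with any of 4 libraries left out (adjusted p = 0.28 for library 1 of the 2-library set, and 0.11, 0.074 and 0.14 for libraries 1 to 3 of the 3-library set). Ptprc and Cd4 of the lymphocyte list went opposite ways, at 1.52 (adjusted p = 0.043, limma) and -2.41 (adjusted p = 6.4e-07). Ptprc had an adjusted p of 0.12 and 0.21 with library 1 or 3 of the 3-library set left out. With library 1 of the 2-library set left out the log2 difference of Ptprc was 1.17. Ptprc reached the minimum of reads only through the 3-library set, so that it had to differ. In the 2-library set Cd4 had 107 and 88.9 CPM, where Ptprc had 1.08 and 1.80 CPM. Which cells the reads of either gene came from was not tested. Csf3r, the 1 neutrophil marker tested, was not called (1.04, adjusted p = 0.070, and 0.028 with library 2 of the 2-library set left out). Of 7 astrocyte markers 3 were higher, up to 1.08 for the water channel gene Aqp4 (adjusted p = 6.2e-05) and down to -0.20 for the transporter gene Slc4a4, which was not called, and their sum was 1944 and 2023 against 2115, 2125 and 2099 CPM. Of 7 oligodendrocyte markers 5 were higher, up to 0.69 for the myelin gene Mobp (adjusted p = 0.0023). Of these calls 3 were lost with library 1 or 3 of the 3-library set left out, those of Cnp, Sox10 and Mog (adjusted p of 0.082 to 0.14), and those of Sox10 and Mog also with library 1 of the 2-library set left out (0.11 for each). The lowest of them, Enpp2, was not called and had 68.0 and 476 CPM against 96.6, 77.8 and 84.3 CPM, so that library 2 of the 2-library set stood apart. Of 6 general neuronal markers 3 were higher and 3 lower, from -0.84 for Rbfox3 (adjusted p = 7.3e-05) to 0.85 for Stmn2 (adjusted p = 0.00045). Of the lower ones Snap25 and Eno2 lost their calls with library 1 of the 2-library set left out (adjusted p = 0.25 for each) and with any library of the 3-library set left out. No endothelial marker passed the minimum of reads. The part of these lists in the members' differences was not tested.

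**Figure D3:**
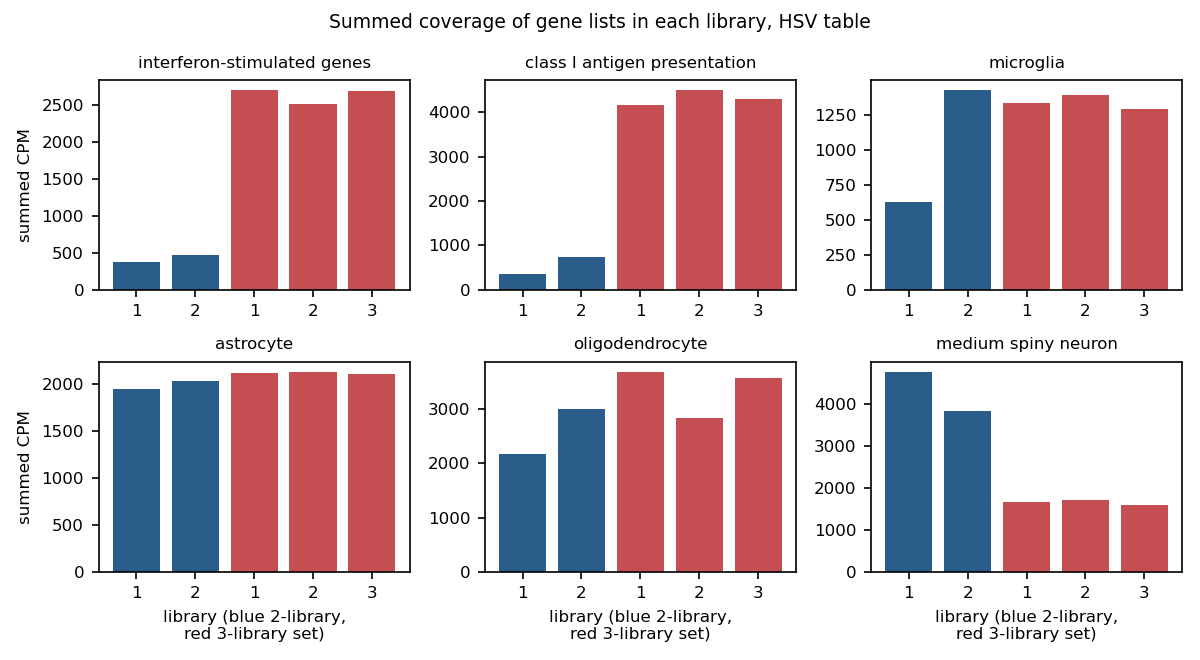
Summed CPM of the 30 tested interferon-stimulated genes and of the tested genes of 5 lists in each library of the HSV table (axes start at 0), with blue bars for the 2-library set and red bars for the 3-library set. The interferon-stimulated genes stand at 379 and 469 CPM in the blue libraries, 94.0 and 184 CPM without Adar, and between 2519 and 2702 CPM in the red ones. The microglial sum is 626 and 1426 CPM in the blue libraries and 1287 to 1391 CPM in the red ones.

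Inclusion of the exons of these genes could be tested for 39 of 103 listed events, in 17 genes, where the reads were deep enough and both forms were seen. None of the 39 was called by limma, against 3.69% of all 7754 events tested, and 1 had an unadjusted p below 0.05. With no weights in limma 0 of the 39 were called, but so were 0 of all events tested, so that this count carries no information. There 6 of the 39 had an unadjusted p below 0.05. No share over all events is given at the unadjusted threshold, so the counts of 1 and 6 are not read further. The limit lay in the 2-library set, where 34 of the 39 events had fewer than 10 reads of their rarer form and 19 had no skipping read. Changes of inclusion were thus not detectable at this depth for most events, and several events share an exon. Most exons were nearly always included, since 62 of the 103 events had a pooled inclusion level above 0.95.

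The event with the largest difference and the lowest p was an exon of Ifi44 of 101 nucleotides (chromosome 3, 151401187 to 151401287 in the table's own coordinates, whose build the sources used here do not state). Its inclusion level, the length-corrected fraction of transcripts with the exon, was 0.23 in the first library of the 2-library set on 3 reads, had no value in the second, and was 0.83, 0.85 and 0.89 in the 3-library set (p = 0.043, adjusted p = 0.37, limma). With 3 reads on one side the sets cannot be compared with any precision. In the authors' deposited table an FDR below 0.05 was given to 2 of the 39 events, against 12.6% of the 7754 tested events, and to the same 2 of all 103 listed member events, against 4.87% of all 27900. They were an exon of Mx1 of 79 nucleotides (FDR 0.010) and one of Irf7 of 163 nucleotides (FDR 0.036). The Mx1 exon was included at 1 and 1 in the 2-library set, on 2 and 14 reads, and at 0.80, 0.79 and 0.91 in the 3-library set. The Irf7 exon was included at 1 and 1, on 2 and 8 reads, and at 0.88, 0.93 and 0.86. Its other 2 tested events stood at 1 and 1 against 0.95 to 0.99, with an FDR of 0.087 and 1 in the authors' deposited table. For the 2 events with a deposited FDR below 0.05 limma gave adjusted p-values of 0.89 (Mx1) and 0.92 (Irf7).

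A mean inclusion level between 0.1 and 0.9 in the 3-library set was found for 16 of the 39 events, in 10 genes. The best read was an in-frame exon of Irf7 of 93 nucleotides, included at 0.74 and 0.81 in the 2-library set on 28 and 89 reads and at 0.81, 0.76 and 0.76 in the 3-library set on 1881, 1710 and 1625 reads. While the coverage of Irf7 differed 36.5-fold between the sets, these levels overlapped. The same exon was at 1 and 1 against 0.93 to 0.99 in both of its other tested events. Xaf1, which opposes inhibitors of apoptosis, had 2 alternative exons, of which that of 196 nucleotides was included at 0.56 and 0.59 against 0.52, 0.56 and 0.51 and that of 89 nucleotides at 0.58 and 0.64 against 0.72, 0.63 and 0.62. Each exon has another tested event, at 0.34 and 0.43 against 0.53, 0.45 and 0.43 for that of 196 nucleotides, the opposite direction, and at 1 and 0.56 on 2 and 3 reads against 0.86, 0.64 and 0.70 for that of 89 nucleotides. None of these was called. Both lengths shift the reading frame. An exon of Irf9 of 86 nucleotides was mostly skipped, at 0.21 and 0.28 against 0.14, 0.14 and 0.14 (adjusted p = 0.61, limma), with 26 reads in the 2-library set. In Herc6 an in-frame exon of 138 nucleotides was included at 0.79 and 0.88 against 0.86, 0.77 and 0.69. The exon of Nlrc5 of 90 nucleotides was at 0.24 and 0.43 against 0.74, 0.67 and 0.59 (adjusted p = 0.52, limma), on 14 reads in the 2-library set.

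**Figure D4:**
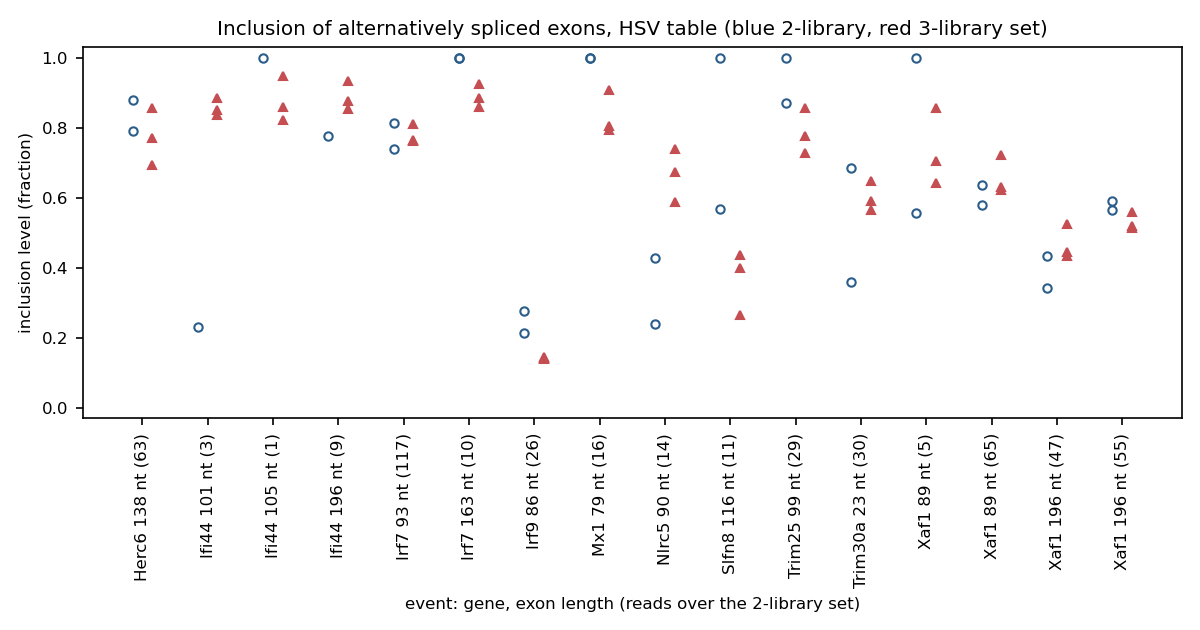
Inclusion level (fraction from 0 to 1) of the 16 tested events with a mean between 0.1 and 0.9 in the 3-library set, by library of the HSV table, with blue circles for the 2-library set and red triangles for the 3-library set. The number of reads over the 2-library set stands in brackets and runs from 1 to 117, and none of the 16 events was called by limma.

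Events of 12 members stood in the dCas9-SET2 table, Rsad2 among them, which the HSV table lacks. The runs at positions 4 and 8 held identical values in each set and were counted once, which leaves 15 runs per set. Runs of 1 sample name are not replicates and the columns are unnamed, so coverage is described here with no test. A run listed 56946 to 106251 reads, and CPM in this table is reads of the deepest event per 1000000 reads of such events over all genes. The mean CPM was lower in the second set for 10 of the 12 members, as it was for 52.4% of all 3434 genes, with a median ratio of 0.77 over members and 0.98 over all genes. The first 4 columns of the second set stood apart, with 1061 to 1373 CPM of Oasl2 against 1881 to 4197 CPM in its other runs and 0 to 41.9 CPM of Ifi44 against 122 to 416 CPM. Irf7 and Xaf1 were below all other runs of the set there too, and the remaining members were not. Without these columns 8 of the 12 members were lower in the second set, as were 52.7% of all genes. The median ratio was then 0.90 over members and 0.98 over all genes, with Oasl2 at 0.92, Irf7 at 0.90 and Ifi44 at 1.12. In the first set columns 5 to 7 stood above its other runs for Irf7, at 2518 to 3364 against at most 2200 CPM. They did so for Ifi44 (390 to 515 against at most 289 CPM) and Rsad2 (306 to 431 against at most 250 CPM), and not for the remaining members. Without columns 5 to 8 of the first set 9 of the 12 members were lower in the second set, as were 52.0% of all genes. The median ratio of members was then 0.84, with Ifi44 at 1.14.

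Oasl2 was the most covered member, with 2170 to 4518 CPM (median 3092) in the first set and 1061 to 4197 CPM (median 2230) in the second, and Irf7 followed with 1155 to 3364 CPM (median 1616) and 691 to 2357 CPM (median 1296). The ratio of means was 0.78 for each, inside the 5th to 95th percentile range of 0.58 to 1.64 of all genes, and the runs of the sets overlapped. Below that range lay Mx1 at 0.40, Rsad2 (viperin, which makes a chain-terminating nucleotide) at 0.44, Dhx58 at 0.46 and Slfn8 at 0.52. They rest on few reads, with 26 against 8 reads over all runs for Mx1, 192 against 65 for Rsad2, 148 against 50 for Dhx58 and 159 against 61 for Slfn8, and their runs overlapped as well. Without the first 4 columns of the second set Dhx58 stood at 0.43, below a 5th percentile of 0.54 for all genes, and Mx1 at 0.55, Rsad2 at 0.56 and Slfn8 at 0.61 were above it. Over all runs Nlrc5 stood at 0.62, Ifi35 at 0.76, Ifi44 at 0.85 and Parp9 at 0.92, and Xaf1 at 1.02 and Irf9 at 1.10 were higher in the second set. Without the first 4 columns of the second set Nlrc5 stood at 0.74, Ifi35 at 0.89, Ifi44 at 1.12 and Parp9 at 1.02. Xaf1 and Irf9 then stood at 1.18 each. The tables were scaled separately, and levels are not compared between them.

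**Figure D5:**
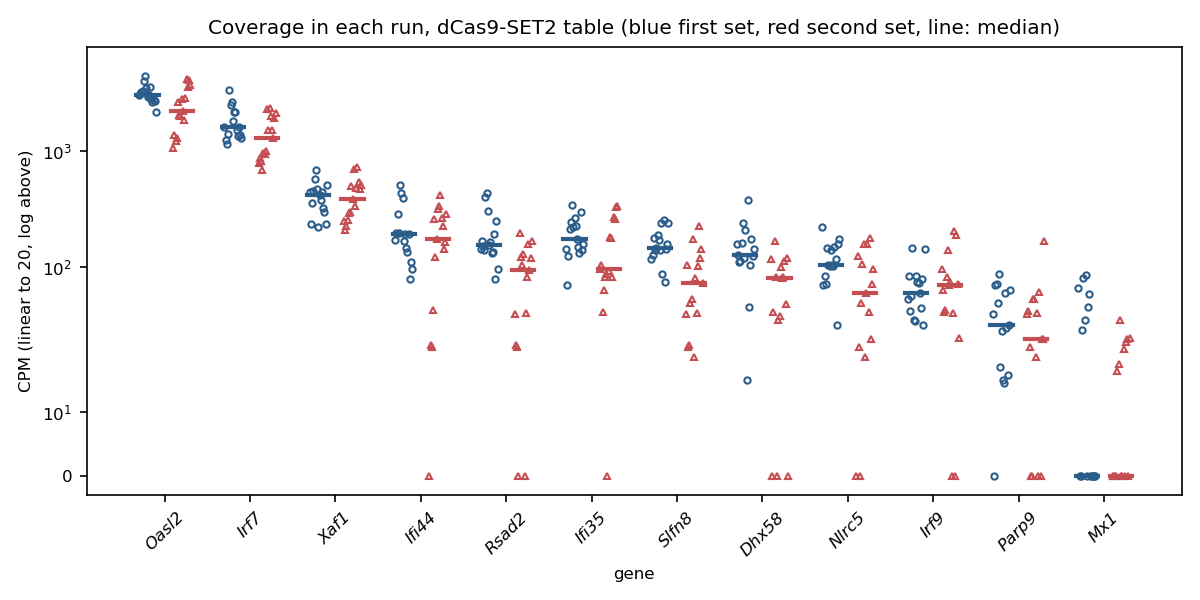
Coverage of the 12 members of the dCas9-SET2 table in each of 15 runs per set, in CPM (linear to 20, log above), with blue circles for the first set, red triangles for the second and a line at the median. The runs of the sets overlap for every gene, with medians of 3092 and 2230 CPM for Oasl2.

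Inclusion in the dCas9-SET2 table is given by the authors' deposited table, with dPSI as the second set minus the first. Of 16 events in the 12 genes 15 had an adjusted p (padj), none of them below 0.05, against 4.96% of all 5287 events with one, and the lowest was 0.17. The exon of Irf9 of 86 nucleotides had that lowest padj, with a deposited dPSI of -0.13 in the authors' table, and 25 inclusion and 44 skipping reads in the first set and 19 and 38 in the second. The largest dPSI in size in the authors' deposited table was -0.14, for an exon of Nlrc5 of 76 nucleotides (padj 0.37). The exon of Irf7 of 93 nucleotides was read most among exons with frequent skipping, with 1667 inclusion and 141 skipping reads in the first set and 963 and 82 in the second, or 92.2% and 92.2% of reads, and a dPSI of -0.0067 in the authors' deposited table. Oasl2, with 98.96% and 99.06% inclusion reads for its exon of 289 nucleotides, had a deposited dPSI of 0.012 in the authors' table (padj 0.52). Of the 16 events 4 had fewer than 100 reads over both sets.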

How the data were processed

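RNA of mouse nucleus accumbens was analysed from 2 deposited exon skipping tables. Read counts stand joined by commas in cells, as deposited by the authors, and 37 columns carry no sample name, so no count model was fitted. Inclusion levels (fractions), p-values, FDR and the dPSI score are the authors' deposited values. The fractions were recomputed in 100% of cases within 0.001. Bowtie2, STAR 2.4.1d and the builds mm10 and mm9 are named, with no role stated, per the submitters' processing notes.

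Gene coverage was the sum of reads of the deepest event (mean of 20 reads per library), scaled by TMM (trims 0.3 and 0.05) per 1000000 listed reads. It was fitted on log2 values with 0.5 reads added (limma 3.58.1, R 4.3.3, trended spread, two-sided, Benjamini-Hochberg over all genes, calls at 0.05). The added reads make differences smaller where reads are few. A fold comes from a difference of mean log2 values, so a single low library can raise it above the ratio of mean CPM. Nlrc5 was at 43.4-fold with mean CPM of 0.30 in the 2-library set and 8.68 in the 3-library set. Scaling to the reads of the deepest events alone was also run, after results were seen, and is an alternative. Inclusion (mean of 20 reads, 10 of the rarer form) was fitted on the logit with weights from the reads behind each value. The fits were tested on simulated data. Exon coordinates are those of the tables.

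Members and gene lists were chosen with earlier results of these data known. Named with values in every library were, per role, the member of highest coverage and those of largest and smallest difference. Per list these were the genes of largest and smallest difference, and all receptors and kinases. From the lists 3 genes are not reported here and were left out. Slfn4, Mx1, Mx2 and Irf9, the exons of intermediate inclusion, and list genes whose calls ended with a library left out were added after their values were seen. Depth was 102 reads per event and library (median) in the HSV table and 4.78 per run in the dCas9-SET2 table.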

Additional observations from a re-analysis of the deposited data

How the results depend on the processing

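The 30 tested members kept their direction and their calls under the alternatives run for coverage (total listed reads, median of ratios, 5 reads, no filter, 2 reads added, sums over events, untrended spread, deepest-event scaling, each library left out), where the highest adjusted p was 0.029 (limma, Slfn8, untrended spread). With skipping reads alone 8 could be tested and 8 were called higher, against 214 of all 2437 genes tested in this way. All of these members but Xaf1 reached the minimum of skipping reads only through the 3-library set, so that they had to differ. Of the 16 with 20 reads in the 2-library set alone 16 were higher, a condition chosen after seeing the data, as was deepest-event scaling. Over all genes limma called 1861, against 384 of 2437 with skipping reads alone and 1178 with an untrended spread, and 1367 to 2086 without 1 library. Calls of inclusion over all events were 286, against 0 with no weights, 974 by the authors' FDR and 150 to 236 without 1 library. By the authors' FDR 2 member events were called against 0 by limma. Of 412 values of the 31 list genes tested here that are no members (the extremes of each list, and the receptors and kinases), 371 kept direction and side of the threshold, 26 lost a call, 5 gained one and 10 changed sign, and no value of changed sign was called. With 1 library left out these ranged from -1.33 to 0.33 for Cd68, -2.47 to 0.34 for Enpp2, -0.32 to 0.24 for Ifngr1, -0.0059 to 0.26 for Ifngr2, -0.013 to 0.63 for Ifnar1, -0.20 to 0.11 for Relb and -0.53 to 0.13 for Slc4a4. Relb was at 0.015 over summed events and Slc4a4 at 0.38 with skipping reads alone. Without library 1 of the 2-library set, Cd68 and Enpp2 were called lower. The cause was not tested. Sums over events left 10 of 12 members lower in the second set of the dCas9-SET2 table, and 11 were lower with the repeated run kept, an alternative added after seeing the data. In the main setting 52.4% of all genes were lower. With each block of 4 neighbouring columns left out in turn, also added then, 8 to 11 members were lower, against 51.0% to 53.6% of all genes. In the 250 bases before the start alone 25.6% of member promoters held the ISRE, against 2.98% of all promoters, and 12.8% the GAS (95% exact binomial interval 4.30% to 27.4%), against 7.02%. No paired analysis was possible because the columns carry no replicate numbers.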
